A study of Mus musculus with 12 samples.

Results

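JQ1 was compared with control in KPC cells, a mouse pancreatic cancer cell line, through 3 RNA-seq libraries of each group. The comparison uses 6 of the 12 libraries in the study and all 17340 genes of the count table. KPC lines come from pancreatic tumours of genetically engineered mice; the labels give only a C57BL/6 background, and every group shares that line. The JQ1 cells received the compound at 1 µM for 48 h. The control cells are labelled both as untreated and as given PBS for 48 h, and no solvent for the compound is named. The I-BET151 group, at 1 µM for 48 h with 3 libraries, is used below for 1 direct contrast with JQ1, and the ITF2357 libraries entered only the shared estimate of spread. Nothing in the labels ties the 3 libraries of a group to separate cultures; the p-values therefore measure only how far these libraries spread, and that spread may be technical.

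JQ1 occupies the acetyl-lysine pockets of the BET proteins, which otherwise hold the elongation kinase P-TEFb and other machinery at acetylated chromatin. Genes that depend strongly on such machinery, among them many that answer quickly to growth factors, are often sensitive to this class of inhibitor. Immediate-early genes are switched on by growth factor and stress signals without new protein synthesis, YAP and TEAD proteins drive genes of adhesion and growth when the Hippo kinases are inactive, and the membrane-bound factor SREBP2 drives sterol genes when cell cholesterol is low.

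The control libraries held 21.9 to 23.2 M counts (M stands for 1000000) and the JQ1 libraries 21 to 29.1 M, and log2 CPM (counts per 1000000 counts) correlated across genes (mean log2 CPM of at least 2) at 0.9971 to 0.9973 within control and at 0.997 to 0.9976 within JQ1. Calls rest on the edgeR quasi-likelihood test over all genes, with a Benjamini-Hochberg adjusted p below 0.05. By that rule 24.8% of genes changed, 12.5% higher and 12.3% lower with JQ1, and over all genes the log2 fold change had a median of 0.00. Most calls were small, with a median size of 1.17-fold among called protein-coding genes in either direction. Calls of 1.5-fold or more made up 1.43% of genes on the higher side and 0.928% on the lower, and calls of 2-fold or more 0.606% in all. Whether called or not, 19.4% of genes had all JQ1 libraries above all controls and 19.5% had them all below. Changes given below without a unit are log2 fold changes, with their standard error where one follows. The share called grew with level. Among genes with a mean log2 CPM of 6 to 8, 25.3% were called higher and 24.7% lower, against 3.85% and 2.89% at 0 to 2. At 8 or more the shares were 45.3% and 23.1%. The counts of well-expressed gene groups below should therefore be read with these shares as well as those of all genes in view.

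Markers of the labelled cell type were present. All 13 ductal markers were measured, with a summed level of 5770 to 5890 CPM in control and 6580 to 6670 CPM with JQ1. Of the markers of other cells, 1 of 13 acinar genes was measured (3.86 to 4.55 CPM in control, 4.43 to 5.83 with JQ1), as were 3 of 10 fibroblast genes (21.8 to 22.8, then 20.8 to 26.5), 4 of 12 macrophage and leukocyte genes (114 to 118, then 126 to 132) and 5 of 9 endothelial genes (45.0 to 51.6, then 57.7 to 61.8). The other members of these lists were not analysed here. Only Cd14, an endotoxin co-receptor, and Flt1, a VEGF receptor, were called among these non-ductal markers, both higher with JQ1, at log2 fold changes of 0.46 ± 0.04 and 0.36 ± 0.06 (SE). The part of other cell types in the results below was not tested.

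Immediate-early genes as a group stood higher with JQ1. Of 43 measured members 24 rose (55.8%, against 12.5% of all genes) and 6 fell (14.0%, against 12.3%), with a median log2 fold change of 0.21. The 2 largest rises were in genes whose products promote the decay of mRNAs. Btg2, an antiproliferative adaptor of the mRNA deadenylase (chr1:134075170-134079120, minus strand, mm10), measured 26.8, 29.2 and 28.6 CPM in the control libraries and 57.0, 55.5 and 56.2 CPM with JQ1. Zfp36, which binds AU-rich mRNAs and speeds their decay (chr7:28376784-28380253, minus strand), measured 25.8, 24.7 and 25 CPM and then 47.6, 48.0 and 49.2 CPM. Every JQ1 library lay above every control library for both genes. Their log2 fold changes were 1.00 ± 0.05 (SE, n = 3 per group; adjusted p = 1.8e-17) and 0.94 ± 0.05 (adjusted p = 5.42e-16). In these bulk samples, a change in the number of cells that express a gene and a change in RNA per cell cannot be told apart.

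The other feedback members moved less evenly. Dusp1, a phosphatase that inactivates MAP kinases, rose from 40, 38.7 and 40.2 CPM to 64.0, 67.0 and 66.2 CPM, a log2 fold change of 0.73 ± 0.04 (adjusted p = 5.92e-15). Dusp5, a nuclear phosphatase for ERK, fell from a mean of 122 to 95.2 CPM (log2 fold change -0.36 ± 0.04). Thus 2 phosphatases of the same pathway changed in opposite directions, and the libraries of the 2 groups did not overlap for either. Zfp36l1, a relative of Zfp36, rose by 0.37 on the log2 scale, whereas Zfp36l2 measured 491 and 511 CPM and Btg1 297 and 290 CPM, neither past the test. Ier2, Ier3, Rhob, Trib1 and Sgk1 rose together by 0.40 to 0.42, and Socs3, a feedback inhibitor of cytokine receptors, by 0.35. Plk2, a polo-like kinase, fell by 0.26.

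Among the 9 AP-1 transcription factors, 4 rose and 2 fell. Fos rose the most, from 16.2, 15.6 and 16.5 CPM to 27.8, 29.3 and 27.6 CPM, a log2 fold change of 0.81 ± 0.06 (adjusted p = 2.74e-12). Fosl1, the AP-1 member kept high by RAS signalling, went the other way, from 102, 104 and 109 CPM to 76.3, 81.4 and 72.4 CPM (-0.46 ± 0.04, adjusted p = 2.71e-10). The ranges of the 2 groups were separate for each gene. Jun, Junb and Fosl2 rose by 0.31, 0.21 and 0.20, Atf3 fell by 0.26, and Fosb (0.19 ± 0.07), Jund (0.42 ± 0.29) and Maff (0.07 ± 0.05) did not pass the test.

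Of 11 other immediate-early transcription factors, mostly of the EGR, NR4A and KLF families, 6 rose and 1 fell. Egr1 rose from 324, 338 and 334 CPM to 403, 418 and 413 CPM (0.31 ± 0.03, adjusted p = 5.42e-11), and its relative Egr3 by more in proportion, from 24.5, 23.1 and 22.2 CPM to 35.4, 32.3 and 36.9 CPM (0.59 ± 0.07). The orphan receptor Nr4a1 rose by 0.45, Klf10 by 0.21 and Klf6 by 0.09, while Klf2, Klf4, Csrnp1 and Srf did not pass the test. Myc, a bHLH factor, was the single one of them called lower (-0.32 ± 0.03). For Nr4a2 (0.28 ± 0.09, adjusted p = 0.0247) the call was lost without control replicate 2 (0.22), JQ1 replicate 1 (0.25) or JQ1 replicate 2 (0.26).

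The C/EBP factors of the list, both leucine zipper regulators of inflammation and differentiation, split. Cebpd rose from 9.60, 9.01 and 10.6 CPM to 18.8, 17.1 and 18.3 CPM (0.89 ± 0.08). Cebpb measured 55.6, 65.5 and 42.4 CPM in control and 21.8, 40.1 and 43.2 CPM with JQ1, so the groups overlapped and the libraries of each varied widely. Its call of -0.65 ± 0.19 (adjusted p = 0.00928) was lost without control replicate 2 (-0.50) or JQ1 replicate 1 (-0.39), and in DESeq2 (adjusted p = 0.276).

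**Figure D1:**
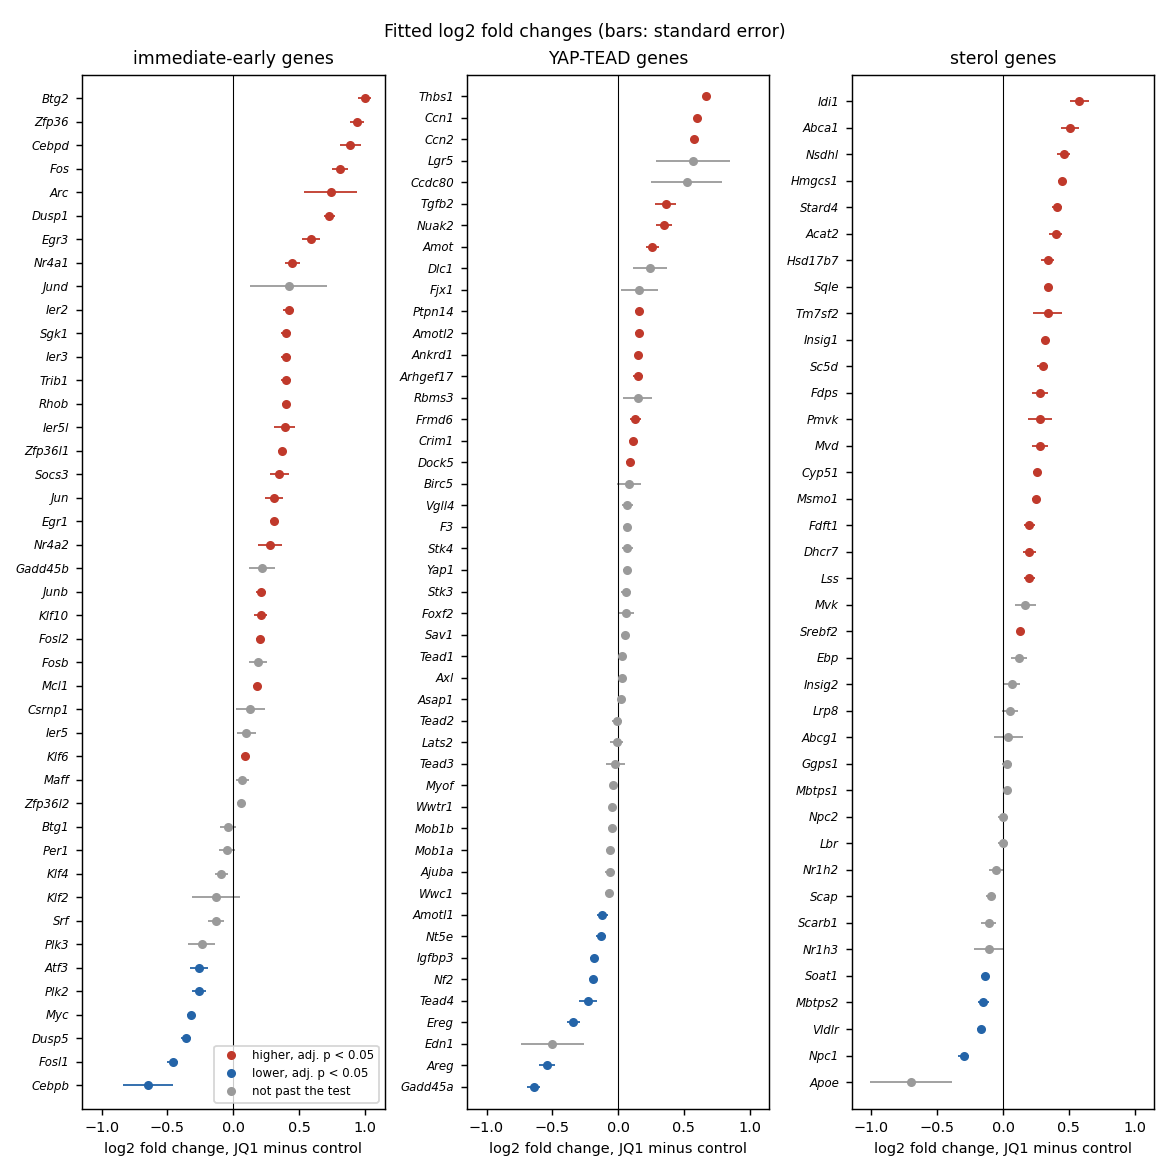
Fitted log2 fold change of measured members (points, with a few sterol genes not drawn, bars are standard errors) in 3 panels for immediate-early, YAP-TEAD and sterol genes; red marks calls higher with JQ1, blue calls lower and grey members not past the test. The immediate-early panel runs from -0.65 (Cebpb) to 1.00 (Btg2), and the YAP-TEAD panel from -0.64 (Gadd45a) to 0.67 (Thbs1).

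RefSeq promoter windows (GRCm38.p6, 250 bases before to 50 after each start site) were found for 33 of the 43 immediate-early genes. The cyclic AMP response element TGACGTCA stood in 4 of them (12.1%, against 3.61% of the 10654 measured genes with a window): Btg2, Dusp1, Plk2 and Maff. The CArG box, the serum response factor motif, stood in 3 (9.09%, against 1.55%): Zfp36, Dusp5 and Srf. Both strands were searched here and below, each motif was counted separately even where matches overlap, and a match is a description of letters only.

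YAP-TEAD genes moved in both directions. Of 47 measured members 13 rose (27.7%, against 12.5% of all genes and 25.3% of those at a mean log2 CPM of 6 to 8) and 8 fell (17.0%, against 12.3% and 24.7%), with a median log2 fold change of 0.06. Among the pathway factors, YAP itself (Yap1, 198 and 207 CPM, log2 fold change 0.07 ± 0.03, adjusted p = 0.118) and its paralog TAZ (Wwtr1, 396 and 382 CPM, -0.05 ± 0.02) did not pass the test, and neither did Tead1, Tead2 or Tead3. Of 21 factors 4 rose, the angiomotins Amot (0.26) and Amotl2 (0.16), the phosphatase Ptpn14 (0.16) and the FERM protein Frmd6 (0.13), all of which are known to restrain YAP. Called lower were the Hippo activator Nf2 (-0.19), Tead4 (-0.23) and Amotl1 (-0.12). The Tead4 call was lost without control replicate 1 (-0.20) or JQ1 replicate 1 (-0.23, adjusted p = 0.0507), and that of Amotl1 without control replicate 3 (-0.10), JQ1 replicate 1 (-0.11) or JQ1 replicate 2 (-0.09).

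The promoters of a pair of classic YAP targets, Ccn1 and Ankrd1, are shown because both hold the TEAD core CATTCC and both genes were called higher, the first by far more than the second. They cover 250 bases before and 30 after the RefSeq start site, 5′ to 3′ on the gene's strand, with the motif or its reverse complement in capitals. The windows lie at chr3:145649956-145650235 (minus strand) and chr19:36119815-36120094 (minus strand) of GRCm38.p6.
Ccn1: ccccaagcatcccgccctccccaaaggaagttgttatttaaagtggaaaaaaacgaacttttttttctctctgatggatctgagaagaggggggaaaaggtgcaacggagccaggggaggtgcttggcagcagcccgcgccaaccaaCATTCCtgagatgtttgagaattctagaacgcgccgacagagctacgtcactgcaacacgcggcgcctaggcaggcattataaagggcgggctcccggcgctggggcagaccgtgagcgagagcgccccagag
Ankrd1: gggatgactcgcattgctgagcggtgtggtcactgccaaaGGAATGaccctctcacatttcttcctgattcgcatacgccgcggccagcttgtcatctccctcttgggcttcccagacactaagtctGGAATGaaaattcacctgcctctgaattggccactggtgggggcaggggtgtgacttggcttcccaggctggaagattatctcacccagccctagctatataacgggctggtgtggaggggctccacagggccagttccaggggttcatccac
In Ccn1 the motif begins 103 bases before the start, and in Ankrd1 210 and 123 bases before it, there on the opposite strand. CATTCC stood in 45.5% of the 33 list members with a window, against 14.6% of all genes with one. Among the target genes alone it stood in 5 of 15 windows (33.3%), and its other matches in the list were in pathway factors. Of the 8 list members called higher that have a window, 5 held the motif (Amotl2, Ptpn14, Ccn1, Ankrd1 and Crim1), and of the 6 called lower none did. Among the members that did not pass the test it stood in 10 further windows, so its presence did not mark the called genes alone.

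Of 26 target genes 9 rose (34.6%, against 12.5% of all genes) and 5 fell (19.2%, against 12.3%), with a median log2 fold change of 0.10. The 3 largest rises were in secreted matrix-associated proteins. Thbs1, the adhesive glycoprotein thrombospondin 1, measured 668, 661 and 657 CPM in control and 1060, 1050 and 1060 CPM with JQ1. Ccn1 went from 335, 351 and 344 CPM to 513, 519 and 528 CPM, and Ccn2 from 201, 198 and 203 CPM to 298, 303 and 297 CPM; both encode matricellular integrin ligands. All JQ1 libraries were above all control libraries for each. The log2 fold changes were 0.67 ± 0.02 (Thbs1, adjusted p = 9.99e-20), 0.60 ± 0.02 (Ccn1, 6.95e-19) and 0.58 ± 0.03 (Ccn2, 5.56e-17). Ankrd1, a nuclear ankyrin-repeat protein, rose less, from 283, 289 and 285 CPM to 319, 313 and 320 CPM (0.15 ± 0.02, adjusted p = 9.92e-06).

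The 5 targets called lower were Gadd45a, Areg, Ereg, Igfbp3 and Nt5e. Gadd45a, a cell-cycle and DNA damage protein, went from 60.2, 60.2 and 64.0 CPM to 39.6, 37.6 and 40.9 CPM (-0.64 ± 0.05, adjusted p = 1.84e-11). The EGFR ligands Areg (55.7, 52.0 and 51.7 CPM, then 36.8, 37.2 and 35.9 CPM) and Ereg (means 60.4 and 47.6 CPM) fell by 0.54 and 0.34, and the IGF-binding protein Igfbp3 by 0.18. In each case the JQ1 libraries were the lower ones without overlap. Axl, Myof, F3, Asap1, Birc5 and Foxf2 did not pass the test, with log2 fold changes from -0.04 to 0.08. The small calls of Dock5 and Nt5e (0.09 and -0.13) each failed without 1 library: Dock5 without control replicate 2 (0.08), control replicate 3 (0.10), JQ1 replicate 1 (0.09) or JQ1 replicate 3 (0.08), Nt5e without control replicate 1 (-0.12), control replicate 3 (-0.12) or JQ1 replicate 3 (-0.11). That of Arhgef17 (0.15) had an adjusted p of 0.05 without control replicate 1 (0.10).

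**Figure D2:**
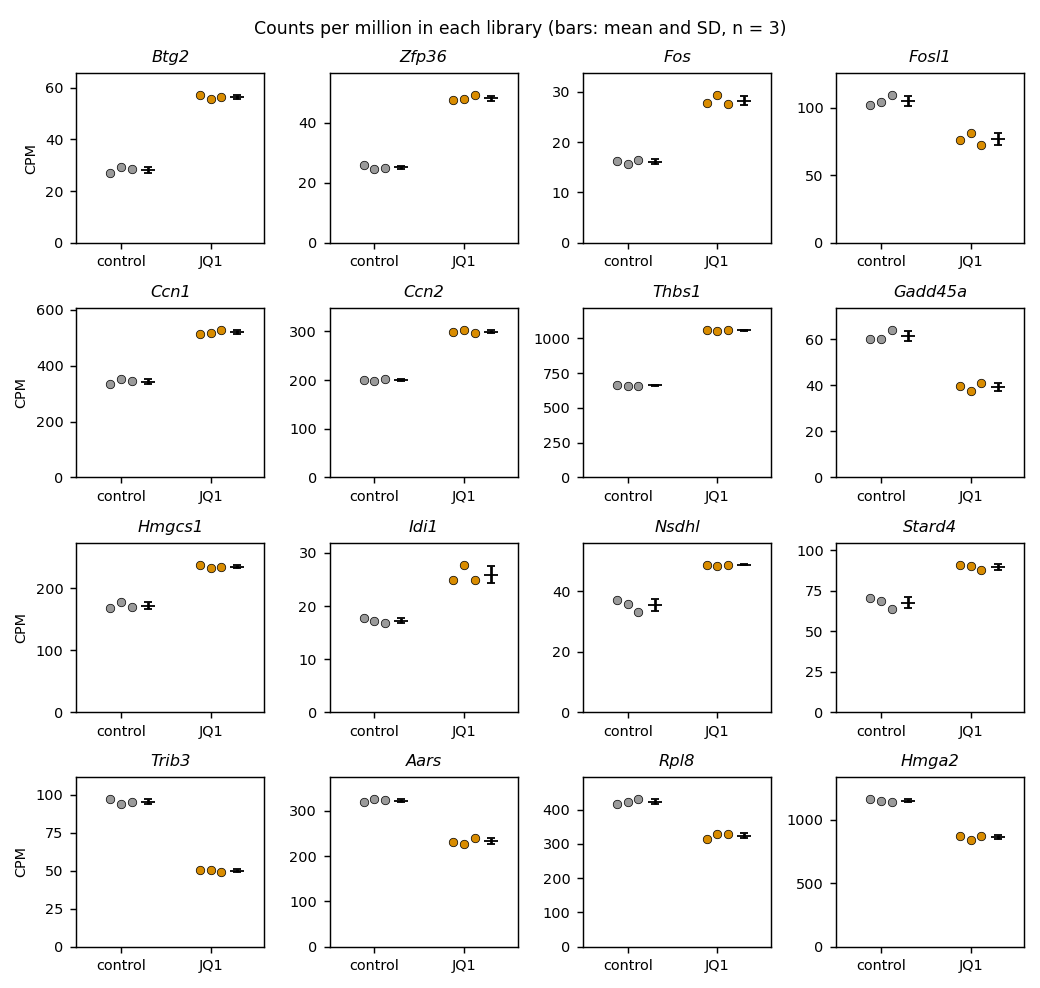
CPM in each of the 3 control and 3 JQ1 libraries (points; bars are the mean and SD, vertical axes start at 0) for 16 genes of the groups described in the text. The JQ1 points of Btg2 lie at 55.5 to 57.0 CPM above control points at 26.8 to 29.2 CPM, and those of Trib3 at 48.9 to 50.6 CPM below control points at 94.0 to 96.9 CPM.

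Sterol genes rose along the biosynthetic chain, while those of uptake and efflux were mixed. In uptake and transport 2 of 8 rose and 2 fell, and among efflux genes and LXR targets 1 of 6 rose and 1 fell. Of all 42 measured members 23 rose (54.8%, against 12.5% of all genes) and 4 fell (9.52%, against 12.3%), with a median of 0.18. Of the 9 enzymes from acetyl-CoA to farnesyl and geranylgeranyl diphosphate 7 rose and none fell (median 0.28), and of the 13 from squalene to cholesterol 11 rose and none fell (median 0.25). The highest of these folds was modest. Hmgcs1, which makes HMG-CoA, measured 168, 178 and 170 CPM in control and 238, 232 and 235 CPM with JQ1, a log2 fold change of 0.45 ± 0.03 (adjusted p = 2.11e-14). Idi1, the isopentenyl diphosphate isomerase, went from 17.8, 17.1 and 16.8 CPM to 24.9, 27.8 and 25 CPM (0.58 ± 0.07, adjusted p = 1.08e-07). No control library reached the lowest JQ1 library in either gene.

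Squalene epoxidase, Sqle, rose from 129, 130 and 129 CPM to 161, 167 and 161 CPM (0.34 ± 0.03), with no overlap. Nsdhl, which removes a methyl group from the sterol ring, rose by 0.46, Acat2 by 0.40, Hsd17b7 by 0.34, Sc5d by 0.30 and Cyp51 by 0.26. Dhcr7, Lss and Fdft1 rose by 0.20 each. The enzymes not past the test were Mvk (0.17 ± 0.08), Ggps1 (0.03 ± 0.04), Ebp (0.12 ± 0.06) and Lbr (0.00 ± 0.04). Pmvk (0.28) was not called without control replicate 1 (0.27), control replicate 2 (0.24) or JQ1 replicate 2 (0.23), nor Tm7sf2 (0.34) without control replicate 2 (0.24) or JQ1 replicate 1 (0.26).

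The promoters of Hmgcs1 and Idi1 are shown because these are the mevalonate pathway genes with the largest fold changes. Capitals mark the sterol regulatory element TCACNCCAC in Hmgcs1 and the NF-Y box CCAAT (or ATTGG on the other strand) in Idi1. The windows are chr13:119690101-119690380 (plus strand) and chr13:8885356-8885635 (plus strand), GRCm38.p6, laid out as above.
Hmgcs1: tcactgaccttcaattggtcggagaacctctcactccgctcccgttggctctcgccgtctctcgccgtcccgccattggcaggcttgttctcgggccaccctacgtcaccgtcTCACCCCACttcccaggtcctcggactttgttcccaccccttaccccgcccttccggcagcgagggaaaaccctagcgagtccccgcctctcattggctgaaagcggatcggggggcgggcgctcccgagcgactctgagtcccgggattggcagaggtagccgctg
Idi1: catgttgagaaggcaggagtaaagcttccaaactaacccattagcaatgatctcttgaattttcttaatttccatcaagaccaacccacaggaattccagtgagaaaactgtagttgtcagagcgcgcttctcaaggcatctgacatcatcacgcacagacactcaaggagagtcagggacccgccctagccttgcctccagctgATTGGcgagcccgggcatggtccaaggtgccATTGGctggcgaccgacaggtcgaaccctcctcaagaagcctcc
The element of Hmgcs1 begins 137 bases before the start site, and the boxes of Idi1 lie 45 and 14 bases before it. TCACNCCAC stood in 1.37% of all windows, and Hmgcs1 was the single sterol gene of 31 with a window that held that spelling. CCAAT stood in 43% of all windows, in 14 of 16 sterol genes called higher (87.5%), in 6 of 7 mevalonate enzymes and in all 10 squalene-to-cholesterol enzymes with a window, those not called included.

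Around the enzymes the picture was mixed. The regulators Srebf2, which encodes SREBP2, and Insig1, which retains it in the endoplasmic reticulum, rose by 0.13 and 0.32, Mbtps2, a protease that releases it, fell by 0.15 (not called without control replicate 1, -0.11), and Scap, Insig2 and Mbtps1 did not pass the test. Stard4, a cytosolic sterol carrier, rose from 70.2, 68.7 and 63.6 CPM to 91.1, 90.4 and 87.7 CPM (0.41 ± 0.04, adjusted p = 2.78e-09). Npc1, which exports cholesterol from lysosomes, fell from 89.0, 92.6 and 88.3 CPM to 70.9, 75.7 and 72.4 CPM (-0.30 ± 0.04). Abca1, the efflux pump, rose by 0.51, while its fellow LXR target Abcg1 measured 6.37 and 6.58 CPM. Soat2, a cholesterol-esterifying enzyme outside the list, fell from 45.0, 42.2 and 42.9 CPM to 22.3, 23 and 23.1 CPM (-0.93 ± 0.06, adjusted p = 2.38e-13), and the related Soat1 by 0.14.

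Fatty acid genes moved in the direction of the sterol enzymes, 14 of 25 higher (56.0%, against 12.5% of all genes) and none lower. The stearoyl-CoA desaturase Scd2 measured 2100 CPM in each control library and 2670, 2690 and 2710 CPM with JQ1 (0.36 ± 0.02, adjusted p = 1.01e-16). Lpin1, a phosphatidate phosphatase, rose by 0.45, the desaturase Fads2 by 0.42, and Acsl3 and Acss2, which activate long-chain acids and acetate, by 0.30 each.

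Genes of the integrated stress response fell together, a response in which the factor ATF4 raises amino acid supply and tRNA charging. Of 54 measured members 46 fell (85.2%) and 4 rose (7.41%), with a median log2 fold change of -0.43. The promoters of Trib3, Chac1, Asns and Aars are shown because they carry the C/EBP-ATF composite spelling TGATGNAA (in capitals, either strand) and all 4 genes were called lower. They lie at chr2:152344031-152344310 (minus strand), chr2:119350992-119351271 (plus strand), chr6:7693180-7693459 (minus strand) and chr8:111033592-111033871 (plus strand), GRCm38.p6.
Trib3: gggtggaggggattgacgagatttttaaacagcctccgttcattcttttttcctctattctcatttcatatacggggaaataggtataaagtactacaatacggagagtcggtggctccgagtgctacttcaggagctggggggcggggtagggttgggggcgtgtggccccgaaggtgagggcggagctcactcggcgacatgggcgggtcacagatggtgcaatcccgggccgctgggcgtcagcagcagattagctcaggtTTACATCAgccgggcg
Chac1: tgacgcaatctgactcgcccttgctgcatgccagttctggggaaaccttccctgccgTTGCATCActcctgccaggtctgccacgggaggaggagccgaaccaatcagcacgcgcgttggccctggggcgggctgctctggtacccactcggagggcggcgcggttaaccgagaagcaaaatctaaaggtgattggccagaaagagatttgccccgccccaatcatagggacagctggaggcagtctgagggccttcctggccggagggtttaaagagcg
Asns: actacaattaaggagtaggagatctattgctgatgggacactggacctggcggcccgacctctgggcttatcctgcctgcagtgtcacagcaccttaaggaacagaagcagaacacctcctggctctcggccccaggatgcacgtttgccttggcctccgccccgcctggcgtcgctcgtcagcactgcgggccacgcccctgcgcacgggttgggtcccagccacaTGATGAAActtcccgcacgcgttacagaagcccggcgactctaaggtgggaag
Aars: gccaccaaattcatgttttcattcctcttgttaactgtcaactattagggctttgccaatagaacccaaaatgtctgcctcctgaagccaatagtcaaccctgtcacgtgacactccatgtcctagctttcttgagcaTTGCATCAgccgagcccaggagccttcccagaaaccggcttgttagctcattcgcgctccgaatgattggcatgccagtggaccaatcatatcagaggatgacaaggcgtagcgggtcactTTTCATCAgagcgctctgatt
The match starts at base 15 of the Trib3 transcript, 193 bases before the Chac1 start and 23 before that of Asns, while Aars holds one 112 bases before the start and another from base 10 of the transcript. The spelling stood in 2.76% of all windows and in 14 of the 42 list members with one (33.3%). All 14 were among the 36 members with a window that were called lower, and 22 of those 36 did not hold it. As 36 of the 42 were called lower, where the matches fell says little about the motif.

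Trib3, a pseudokinase that restrains ATF4, measured 96.9, 94.0 and 95.4 CPM in control and 50.2, 50.6 and 48.9 CPM with JQ1, and Ddit3, which encodes CHOP, 27.3, 31 and 26.4 CPM and then 14.0, 13.6 and 14.7 CPM. The groups were far apart in both, at log2 fold changes of -0.94 ± 0.06 (adjusted p = 1.3e-14) and -1.0 ± 0.08 (5.23e-12). Ppp1r15a, which lets translation resume, fell by 0.79. Of the 13 regulators 8 fell and 3 rose, and the 3 that rose were kinases of the initiation factor eIF2, led by Eif2ak3, the kinase PERK, from 41.7, 39.7 and 40.1 CPM to 53, 53.7 and 49.9 CPM (0.36 ± 0.05). Atf4 itself, chosen after its values were seen, fell from 357, 374 and 361 CPM to 279, 289 and 281 CPM (-0.36 ± 0.03).

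Amino acid supply genes and other ATF4 targets gave 24 falls and 1 rise among 27, with a median of -0.51. Bcat1, which transaminates branched-chain amino acids, fell by 1.11 and Aldh1l2, a mitochondrial folate enzyme, by 0.97. The cystathionine lyase Cth fell from 87.4, 89.4 and 91.1 CPM to 50.3, 48.1 and 46.3 CPM, and the cystine transporter Slc7a11 from 284, 286 and 290 CPM to 182, 168 and 175 CPM (-0.89 ± 0.05 and -0.71 ± 0.04). Asparagine synthetase, Asns, went from 231, 238 and 239 CPM to 167, 167 and 163 CPM (-0.51 ± 0.03), and Phgdh, the first enzyme of serine synthesis, fell by 0.56. No library of one group entered the range of the other for these genes. Chac1, also chosen after its values were seen, degrades glutathione and fell by 0.46 ± 0.07.

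All 14 genes of the tRNA charging role fell, in the narrow range of -0.61 to -0.27 (median -0.42); 13 are aminoacyl-tRNA synthetases and 1 exports tRNA from the nucleus. The alanyl enzyme Aars went from 319, 325 and 323 CPM to 230, 227 and 240 CPM (-0.47 ± 0.03, adjusted p = 7e-15), and Lars, Nars and Vars fell by 0.43 to 0.44. Rars, outside the list, fell by 0.45.

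Chaperones of the endoplasmic reticulum did not move with these genes. Of 27, 8 rose (29.6%, against 12.5% of all genes) and 4 fell (14.8%, against 12.3%), with a median of 0.05. The stress sensors Ern1, which encodes IRE1, and Atf6 fell by 0.50 and 0.30, and Hyou1 by 0.31, whereas the folding enzymes Pdia3, P4hb and the lectin Calr rose by 0.24, 0.22 and 0.18. Heat shock genes were likewise split, with 7 of 20 higher and 6 lower (3 to 6 lower with 1 library left out). The mitochondrial chaperones Hspa9 and Hspd1 fell by 0.37 and 0.36, while the cytosolic Hspb1, Hspa1b and Dnajb1 rose by 0.45, 0.34 and 0.26. Sqstm1, an autophagy receptor, fell from 568, 576 and 570 CPM to 381, 377 and 385 CPM (-0.58 ± 0.02, adjusted p = 6.95e-19). Its list, of lysosome and autophagy genes, gave 8 falls (17.0%, against 12.3% of all genes) and 5 rises (10.6%, against 12.5%) among 47. These shares are near those of all genes. With 1 library left out the falls numbered 5 to 7 and the rises 3 to 4.

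Genes that build ribosomes fell almost throughout, by small steps. Of 80 assembly factors 66 fell (82.5%, against 12.3% of all genes) and none rose, with a median of -0.25, and the small subunit (31 of 34), large subunit (20 of 28) and nucleolar (15 of 18) groups shared it. Tcof1, the nucleolar protein treacle, measured 78.2, 80.1 and 76.5 CPM and then 51.3, 55.1 and 57.2 CPM (-0.52 ± 0.05, adjusted p = 1.1e-10). Rrp9, a U3 particle subunit, fell by 0.58 and the processome factor Utp14a by 0.50. Of 28 RNA polymerase I and III genes 10 fell (35.7%) and 1 rose (3.57%). Polr1a, the largest polymerase I subunit, went from 195, 201 and 203 CPM to 168, 170 and 173 CPM (-0.23 ± 0.03).

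Of 79 ribosomal protein genes 68 fell (86.1%) and none rose, with a median of -0.23 and a lowest value of -0.40. Rpl8 measured 417, 423 and 430 CPM in control and 315, 328 and 330 CPM with JQ1 (-0.38 ± 0.03, adjusted p = 6.87e-14), and Rpl18 155, 157 and 158 CPM and then 119, 116 and 121 CPM (-0.40 ± 0.03). These genes together took 2.34% ± 0.0172 of all counts in control and 1.99% ± 0.0275 with JQ1 (SD, n = 3 each). Many have near-identical processed pseudogenes, so the division of reads among copies is uncertain. In the MYC network 7 of 20 fell and 4 rose, where 12.3% of all genes fell and 12.5% rose. With 1 library left out 6 to 7 fell and 4 to 5 rose. The polyamine enzymes Srm and Odc1 and the pyrimidine enzyme Cad fell by 0.49, 0.36 and 0.43. The MYC antagonist Mxd4 and the paralog Mycn (2.13 and 3.34 CPM) rose by 0.38 and 0.64.

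**Figure D3:**
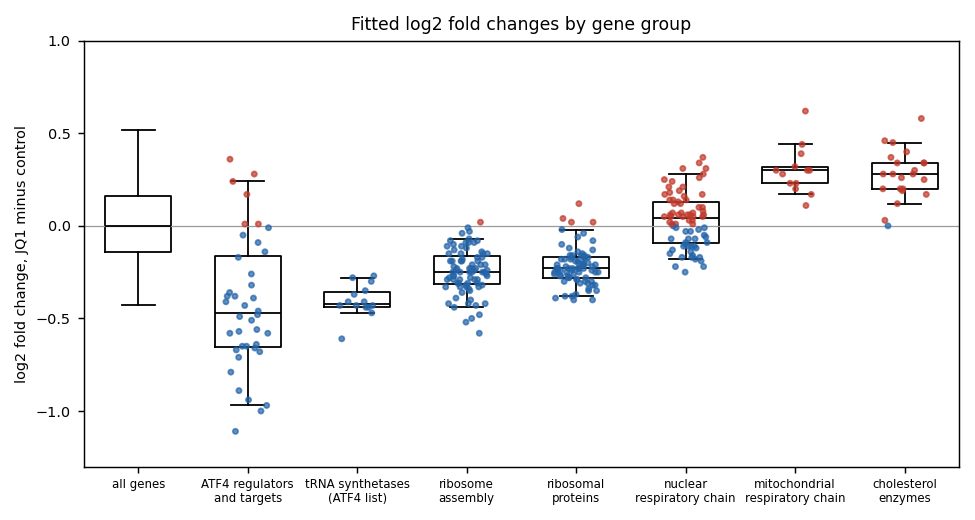
Fitted log2 fold changes (vertical axis) of all genes and of 7 gene groups; boxes give quartiles, the line the median, whiskers the 5th to 95th percentile, and points single genes coloured by sign. The tRNA charging genes lie between -0.61 and -0.27, all below 0, while the mitochondrially encoded respiratory genes lie between 0.11 and 0.62.

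The respiratory chain separated by genome. Of the 13 mitochondrially encoded protein genes 11 rose (84.6%, against 12.5% of all genes) and none fell, with a median of 0.30. Of 74 nuclear-encoded subunits 12 rose (16.2%) and 11 fell (14.9%, against 12.3% of all genes), with a median of 0.04. With 1 library left out 8 to 10 of the nuclear-encoded subunits rose and 7 to 11 fell. mt-Co1, a cytochrome c oxidase subunit, measured 9440, 9130 and 9270 CPM in control and 11700, 11500 and 11400 CPM with JQ1 (0.32 ± 0.02, adjusted p = 1.15e-14). The group's share of all counts rose from 2.27% ± 0.0491 to 2.73% ± 0.0307. mt-Atp8 (0.62 ± 0.20) lost its call without control replicate 2 (0.49) or JQ1 replicate 3 (0.39), and in DESeq2 (adjusted p = 0.21). The mitochondrial 12S rRNA mt-Rnr1, counted at a far lower level than mt-Co1, fell from 11.2, 16.5 and 20.5 CPM to 8.98, 8.60 and 9.47 CPM (-0.83 ± 0.16, adjusted p = 0.000134). Its control libraries varied widely among themselves, and the part of library preparation in its level was not tested. The 16S rRNA mt-Rnr2, named after its values were seen, measured 16.2, 25.5 and 30.1 CPM and then 15.5, 16.1 and 20.2 CPM, overlapping and not past the test (adjusted p = 0.0568).

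Of 38 TGF-beta and BMP genes 20 rose (52.6%, against 12.5% of all genes) and 5 fell (13.2%, against 12.3%). With 1 library left out 3 to 5 fell. Id1, Id2 and Id3 encode inhibitory partners of bHLH factors. Id2 went from 54.1, 55.0 and 56.8 CPM to 86.8, 90.7 and 91.5 CPM (0.70 ± 0.04, adjusted p = 8.24e-16), Id1 from 67.4, 68.4 and 70.8 CPM to 105, 106 and 96.9 CPM (0.57 ± 0.04), and Id3 from 12.4, 15.1 and 13.5 CPM to 19.5, 23.3 and 20.7 CPM (0.63 ± 0.08). The JQ1 libraries were higher than control in each. The ligand Bmp2 rose by 0.59, and Ltbp2, a latent TGF-beta binding protein, by 0.60, whereas the activin subunit Inhba fell by 0.27.

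Matrix and adhesion genes gave more rises than falls. Of 43 collagen and matrix genes 21 rose (48.8%, against 12.5% of all genes) and 4 fell (9.3%, against 12.3%). Of 24 proteases and inhibitors 14 rose (58.3%) and 2 fell (8.33%). With 1 library left out the falls numbered 2 to 3 and 1 to 2. Col12a1, a fibril-associated collagen, went from 39.8, 40.6 and 39.2 CPM to 64.5, 63.7 and 64.8 CPM (0.69 ± 0.05), and Loxl2, a collagen cross-linker, from 43.7, 45.5 and 42.4 CPM to 67.4, 67.7 and 69.0 CPM (0.63 ± 0.04). Neither gene showed any overlap. Fibronectin, Fn1, among the most counted genes, rose from a mean of 3420 to 4400 CPM (0.37 ± 0.02). Of 14 integrin genes 6 rose (42.9%) and 4 fell (28.6%). Itgb6, which activates latent TGF-beta, rose from 17.0, 17.2 and 15.9 CPM to 30, 27.8 and 27.2 CPM (0.76 ± 0.06) and the collagen receptor chain Itga1 by 0.55, while the leukocyte-type chain Itgb7 fell from 8.14, 5.88 and 6.87 CPM to 3.11, 3.79 and 3.72 CPM (-0.98 ± 0.16).

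Of 28 cytoskeletal genes of the SRF-MRTF list 17 rose (60.7%) and 1 fell, the coactivator Mrtfa itself (-0.15). Vcl, which encodes the focal adhesion protein vinculin, rose from 336, 341 and 342 CPM to 425, 419 and 425 CPM (0.32 ± 0.02), Filip1l by 0.34 and the tropomyosin Tpm4 by 0.25. Srf did not pass the test (-0.13 ± 0.06).

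Of 28 hypoxia-inducible genes 15 rose (53.6%, against 12.5% of all genes) and 5 fell (17.9%, against 12.3%). Of 18 glycolytic genes 13 rose (72.2%) with no fall. Bnip3, a mitophagy receptor, went from 33.4, 32.6 and 33.8 CPM to 58.2, 59.2 and 56.3 CPM (0.80 ± 0.05, adjusted p = 4.33e-14), and Pgk1 from 208, 215 and 211 CPM to 292, 289 and 287 CPM (0.45 ± 0.03). Egln3, the oxygen-sensing prolyl hydroxylase, rose by 0.58 and the lactate exporter Slc16a3 by 0.45. The members that fell included Stc2 (-0.64) and Vldlr (-0.17), both also members of the integrated stress response list.

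Of 24 RAS-MAPK output and feedback genes 11 fell (45.8%, against 12.3% of all genes) and 4 rose (16.7%, against 12.5%). Besides Fosl1 and Dusp5, the chromatin proteins Hmga2 (1160, 1150 and 1140 CPM, then 871, 843 and 874 CPM) and Hmga1 (590, 603 and 597 CPM, then 396, 406 and 405 CPM) fell by 0.41 and 0.57. Their JQ1 libraries were all lower than their controls. Among EGFR ligands and receptors 5 of 14 fell (35.7%) and 2 rose (14.3%), and with 1 library left out 3 to 4 fell. Erbb3, a receptor of the family, rose by 0.50. Of 37 mitosis genes 14 rose (37.8%, against 12.5% of all genes), such as the kinetochore gene Nuf2 (0.56) and Cenpf (0.35), and none fell. Of 38 replication genes 8 fell (21.1%, against 19.0% of genes at a mean log2 CPM of 4 to 6 and 24.7% at 6 to 8) and 1 rose, with the licensing factor Cdt1 at -0.41 and the helicase subunit Mcm2 at -0.30. The CDK inhibitor Cdkn1b rose by 0.38, and Cdkn1a, the p53 target, measured 15.6 and 13.4 CPM and did not pass the test.

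Of 32 epithelial genes 14 rose (43.8%, against 12.5% of all genes) and 2 fell (6.25%, against 12.3%). The adherens junction gene Cdh1 went from 772, 789 and 780 CPM to 948, 942 and 939 CPM (0.27 ± 0.02, adjusted p = 2.32e-12), and the tight junction gene Cldn2 rose by 0.38. Cdsn, which encodes the adhesion protein corneodesmosin, fell from 26.1, 27.6 and 26.9 CPM to 8.55, 10.5 and 9.58 CPM (-1.5 ± 0.09, adjusted p = 5.92e-15), the lowest fold change of this list. Mesenchymal genes gave 8 rises (47.1%) and 2 falls (11.8%) among 17. The repressor Snai2 fell from 38.9, 43.3 and 43.9 CPM to 28.0, 25.5 and 25.5 CPM (-0.67 ± 0.06). Both lists thus held more rises than falls. Among pancreas transcription factors, Sox9 of the ductal and progenitor state fell by 0.40 and Hnf4a rose by 0.20. Of the 21 in that list 4 rose (19.0%, against 12.5% of all genes) and 3 fell (14.3%, against 12.3%), shares near those of all genes. Of 36 WNT and Notch genes 13 rose (36.1%, against 12.5% of all genes) and 6 fell (16.7%, against 12.3%), with a median of 0.11. With 1 library left out 9 to 13 rose and 5 to 6 fell. Those that fell included the Wnt ligands Wnt7a and Wnt7b, by 0.87 and 0.42, and the Notch ligand Dll1, by 0.57.

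Cytokine genes gave 9 rises and 2 falls among 18 chemokines and cytokines, where 12.5% of all genes rose and 12.3% fell. The NF-kB regulators of the same list split evenly, with 4 rises and 4 falls among 14. With 1 library left out the whole list of 32 gave 11 to 13 rises and 3 to 6 falls. The neutrophil chemoattractants Cxcl5 (66.2, 71.6 and 67.6 CPM, then 119, 117 and 116 CPM) and Cxcl1 (24.6, 23.9 and 23.5 CPM, then 38.3, 42.9 and 37.5 CPM) rose by 0.78 ± 0.04 and 0.72 ± 0.07. The prostaglandin synthase Ptgs2 fell by 0.34. Of 16 glucocorticoid-inducible genes 9 rose (56.2%) and 1 fell (6.25%), but Zfp36, Cebpd, Dusp1 and Sgk1 stand in the immediate-early list as well. Outside the immediate-early list, glutamine synthetase, Glul, rose from 151, 150 and 151 CPM to 209, 209 and 208 CPM (0.47 ± 0.03).

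**Figure D4:**
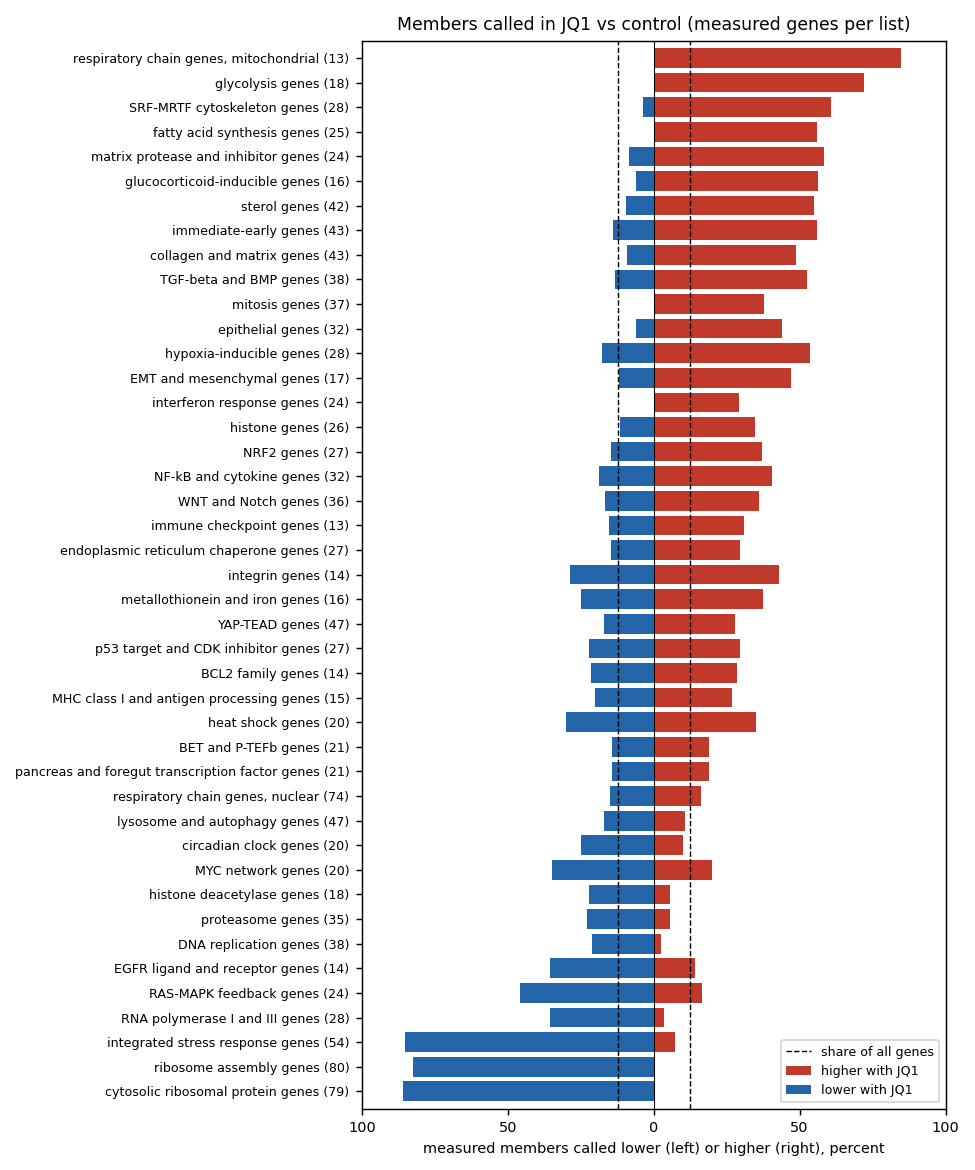
Percent of measured members called higher (right, red) or lower (left, blue) with JQ1 in each list with 13 or more measured genes; dashed lines mark the shares of all genes, 12.5% higher and 12.3% lower. The bars reach 86.1% lower for ribosomal proteins, 85.2% lower for the integrated stress response and 84.6% higher for mitochondrially encoded respiratory genes.

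The genes of the target proteins and of transcript elongation barely moved. Of 21, 4 rose (19.0%, against 12.5% of all genes) and 3 fell (14.3%, against 12.3%), shares near those of all genes. The called ones lay within -0.15 to 0.28, and 2 to 4 rose with 1 library left out. Brd3, which encodes a BET protein, had a mean of 122 CPM in control and 125 CPM with JQ1 and did not pass the test (0.03 ± 0.03). Ell2, an elongation factor, rose by 0.28. The BET gene Brd2 (0.08 ± 0.03) and Hexim1, the P-TEFb inhibitor often used as a marker of BET inhibition (17.4, 17.5 and 15.6 CPM, then 19.9, 21 and 19 CPM; 0.25 ± 0.07, adjusted p = 0.0121), were called, but not under every alternative. Hexim1 was not called without control replicate 3 (0.20) or JQ1 replicate 2 (0.21), and Brd2 not without control replicate 1 (0.07), control replicate 3 (0.07), JQ1 replicate 2 (0.06) or JQ1 replicate 3 (0.06).

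JQ1 and I-BET151 are both BET bromodomain inhibitors, given here at the same dose and for the same time, and this was the 1 pair of compounds compared. Directly contrasted, 60.4% of genes differed, 30.7% with JQ1 higher and 29.8% with JQ1 lower. The marker Hexim1 measured 59.6 ± 4.51 CPM with I-BET151 (SD, n = 3), and JQ1 stood 1.58 ± 0.06 lower on the log2 scale (adjusted p = 6.35e-21). Serpini1 and Brd2 were also lower with JQ1 than with I-BET151, by 1.08 each, and Myc was higher by 1.24.

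Immediate-early genes differed in both directions, 20 higher and 21 lower with JQ1 of 43. Btg2, Cebpd and Fos were lower with JQ1 than with I-BET151, by 1.31, 1.53 and 1.2 on the log2 scale, and Zfp36 and Jun, at means of 115 and 80.3 CPM with I-BET151, were lower with JQ1 as well. Fosl1, Egr3, Dusp5 and Nr4a1 were higher with JQ1, by 3.06, 1.74, 1.58 and 1.00. In YAP-TEAD genes the ligands Areg and Ereg and the binding protein Igfbp3 were higher with JQ1, by 3.65, 2.14 and 3.04, and Thbs1 by 1.53. Nuak2 and Amot were lower by 1.39 and 1.12. Ccn1 gave no detected difference, at -0.01 ± 0.02 (SE; adjusted p = 0.73) and 524 ± 9.41 CPM with I-BET151.

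Sterol genes were higher with JQ1 than with I-BET151 in 29 of 42 cases and lower in 9 (median 0.48), among them Cyp51 by 1.02, Nsdhl by 0.96 and Hmgcs1 by 0.85, while Abca1 and Insig1 were lower by 1.28 and 0.41. Sqle (0.06 ± 0.03, adjusted p = 0.063) did not pass the test. In the integrated stress response JQ1 was higher in 47 of 54 (median 1.02), and among mitosis genes in 36 of 37 (median 1.28). Slc7a11 measured 6.55 CPM on average with I-BET151, against 175 with JQ1, a difference of 4.74 ± 0.06, and Trib3 and Asns differed by 3.84 and 1.92. Ribosome assembly genes (70 of 80 higher with JQ1, median 0.40) and ribosomal proteins (69 of 79, median 0.28) differed likewise.

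Some of the strongest single changes fell outside these groups. Recql4, a DNA helicase, fell from 19.9, 20.2 and 18.6 CPM to 10.9, 9.62 and 9.20 CPM (-0.98 ± 0.11, adjusted p = 1.66e-08), and Acot2, a mitochondrial acyl-CoA thioesterase, from 13, 11.3 and 12.3 CPM to 7.05, 5.69 and 5.48 CPM (-1.0 ± 0.13). The keratin Krt23 fell by 0.85. No JQ1 library of these genes reached the control range. Among abundant genes, the xenobiotic-metabolising cytochrome Cyp1b1 rose from 136, 137 and 139 CPM to 215, 213 and 220 CPM (0.66 ± 0.03, adjusted p = 2.58e-18), the RNA-binding protein Bicc1 from 72.1, 75.9 and 74.5 CPM to 119, 114 and 126 CPM (0.69 ± 0.04), and the thioredoxin inhibitor Txnip from 209, 206 and 215 CPM to 293, 295 and 293 CPM (0.48 ± 0.03). The plasma copper oxidase Cp and the iron exporter Slc40a1 rose by 0.49 and 0.63. The catenin Ctnnd1 rose by 0.51, the sodium pump subunit Atp1b1 by 0.59, and the ubiquitin ligase Rnf213 fell from 301, 313 and 306 CPM to 224, 223 and 227 CPM (-0.45 ± 0.03).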

How the data were processed

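Total RNA of mouse KPC cells was sequenced as paired-end reads, with 3 libraries each for control, JQ1, I-BET151 and ITF2357. Per the submitters' processing notes, the tools were edgeR 3.38.4, Subread 2.0.1 with featureCounts, STAR 2.7.2a and bcl2fastq, and the build mm10; annotation release, strand setting and gene filter are not given in the sources used here. As no strand setting is stated, reads of overlapping or antisense genes cannot be told apart. The authors deposited raw gene counts and log2 CPM of the same libraries in 1 table; the counts were analysed, and each of the 12 deposited log2 CPM columns correlated best with the counts of its own library. Summed over the libraries, no gene had fewer than 51 counts, and 17170 identifiers (99.0%) were found in GENCODE M21, the source of gene coordinates.

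Counts of all 12 libraries were fitted in edgeR 4.0.16 (R 4.3.3) with TMM factors, filterByExpr (0 genes removed), 1 group factor and the quasi-likelihood test. P-values were computed here from the deposited counts and adjusted over 17340 genes (Benjamini-Hochberg, threshold 0.05). CPM values in the text are scaled by TMM, and standard errors are the log2 fold change divided by the root of F. In data simulated from these libraries for JQ1 against control (17340 genes), 76% of 1.25-fold and 96% of 1.5-fold changes were recovered and 4.12% of calls were false. The simulation gave all genes 1 common spread and changed 50 genes per fold size, none of them of low count. Its rates therefore do not carry over to the real calls, where spread differs by gene, more genes are called and low counts occur. Total counts per library set the precision of each value.

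The members and the 49 gene lists were chosen with earlier results of these data known. Named genes were all members of the immediate-early, YAP-TEAD and sterol lists; up to 5 called members of each other list by size, and the largest opposite call (mean log2 CPM of at least 1, no overlap); the 25 largest rises and falls at a mean log2 CPM of at least 2 and the 12 largest at 7; and 10 genes of prior interest. Alternatives were DESeq2 (1.42.0), its size factors, library totals, no filter, 1 CPM in 3 libraries, a 2-group fit, a replicate block, a 1.2-fold test and leaving out each library. Promoter sequences are from RefSeq (GRCm38.p6), with windows for 10654 genes. A few genes counted in the lists are not reported here by name.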

Additional observations from a re-analysis of the deposited data

How the results depend on the processing

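The calls are mostly of small changes. Tested against a fold change of 1.2 (edgeR glmTreat), 476 genes were called for JQ1 against control, 271 higher and 205 lower, with 13 immediate-early, 3 YAP-TEAD and 7 sterol genes higher, and 6221 genes between JQ1 and I-BET151. Under the other alternatives the count of changed genes ran from 3457 (without JQ1 replicate 1) to 4948 (JQ1 and control libraries alone), within 1.5 times of the 4308 reported. Leaving out each library gave 3457 to 3719 changed genes, 1768 to 1909 higher and 1682 to 1816 lower, 23 to 25 immediate-early, 12 to 13 YAP-TEAD and 21 to 23 sterol genes higher, and 9749 to 9937 genes between JQ1 and I-BET151. The share of calls that were higher was 50.5%, and 48.1% to 53.4% under the other scalings and tools. No named call changed sign under any alternative run. Of 334 named calls, 294 held in all 13 alternatives other than the 1.2-fold test, which 155 passed. Control and JQ1 libraries with the same number did not deviate together (r = 0.06, 0.05 and -0.03), so the numbers give no pairing; a fit with the replicate block called 4141 genes, without Brd2 (adjusted p = 0.0513). The interferon list gave 7 rises of 24 (29.2%, against 12.5% of all genes), but 2 to 5 when 1 library was left out.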

Other observations

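Annotated gene types differed in the direction of their calls. Of 1369 processed pseudogenes, copies of spliced mRNAs set back into the genome, 102 were called higher with JQ1 (7.45%) and 12 lower (0.877%), with a median log2 fold change of 0.13. Protein-coding genes were balanced, with 15.5% higher and 15.8% lower of 12665, and long noncoding genes leaned lower, with 3.09% and 5.07% of 1520. Gm12481, one such pseudogene, measured 15.4, 16.5 and 15.2 CPM in control and 28.8, 29.1 and 25.8 CPM with JQ1, without overlap. Reads of a pseudogene can come from its parent gene, and which copy gave them was not tested. Among the most counted genes (mean log2 CPM of 8 or more) 45.3% were called higher and 23.1% lower of 616, and the called coding genes had median lengths of 5153 bases (higher) and 4604 bases (lower), against 4336 bases for those not called.

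A few smaller sets were not described above. Gm10800 and Gm21738, predicted genes annotated as protein-coding, rose from 64.7, 65.0 and 67.4 CPM to 126, 121 and 118 CPM and from 6.03, 6.36 and 5.31 CPM to 11.4, 12.2 and 9.77 CPM, and both were lower with I-BET151 than with JQ1. Of 26 histone genes 9 rose (34.6%, against 12.5% of all genes) and 3 fell (11.5%, against 12.3%). Among them were the variant gene H2afv (0.41 ± 0.06) and macroH2A, H2afy (-0.20 ± 0.03). Clock-related Ciart, a repressor of the oscillator, fell from 13.8, 13.7 and 11.9 CPM to 7.11, 6.71 and 6.24 CPM (-0.97 ± 0.12, edgeR adjusted p = 9.07e-08), and the repressors Bhlhe40 and Bhlhe41 moved apart, at 0.22 and -0.42. In the proteasome 8 of 35 genes fell (22.9%, against 12.3% of all genes and 24.7% at a mean log2 CPM of 6 to 8). There 2 rose (5.71%, against 12.5% and 25.3%), with a median of -0.04 and the ATPase subunit Psmc2 at -0.28. Of 27 NRF2 genes 10 rose and 4 fell (median 0.03), where 12.5% of all genes rose and 12.3% fell. The 4 falls made up 14.8% of the list, near the share of all genes. With 1 library left out 8 to 10 rose and 4 fell. The called genes included Gstm1 and Gclc (0.46 and 0.34) and Slc7a11 and Hmox1 (-0.71 and -0.30). Map2, a neuronal microtubule protein, rose by 0.65.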
